A study of Arabidopsis thaliana with 14 samples.

Results

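The regions described here are the nuclear tRNA genes of Arabidopsis thaliana: 625 genes annotated as tRNA on chromosomes 1 to 5 (238, 95, 92, 77 and 123 genes in chromosome order). They were reached through the 1157 windows of 300 nt, of 595735 nuclear windows in all, that overlap such a gene. The 4824 windows lying 500 to 1500 nt from a tRNA gene, and on none, served as the local background and are called flank. Position and annotation chose these windows, and no methylation value entered the choice. Coordinates are 1-based and on TAIR10.

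Methylation was measured by whole-genome bisulfite sequencing of endosperm and embryo, dissected 6 days after pollination from 7 crosses among the strains Col-0 (Col), Ler and Cvi. The crosses, female parent first, were Cvi x Ler, Ler x Cvi, Cvi x Col, Col x Cvi, Cvi x Cvi, Ler x Ler and Col x Col, all of plants with no transgene or mutation named beyond the strain. Each cross gave 1 endosperm and 1 embryo library, 14 in all, from seeds pooled over several siliques, so no group has replicates. Endosperm holds more copies of the maternal than of the paternal genome, whereas the embryo holds them in equal dose. Maternal seed coat tissue in the dissected material was not measured.

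Each value is the percent of cytosine calls that were methylated in a window, separately for cytosines followed by G (CG) and for those in CHG and CHH, H standing for A, C or T. Windows with fewer than 5 calls in a library were left out of its values. The embryo libraries held 8096343 (Cvi x Cvi) to 62566453 (Ler x Cvi) CG calls in nuclear windows and had CG values at 672 to 981 of the 1157 tRNA windows. The endosperm libraries were shallower, with 214040 (Col x Col) to 21029487 (Cvi x Cvi) CG calls and values at 31 to 884 tRNA windows. The Cvi x Ler embryo stood apart from the rest. Across all CG windows its Pearson correlation with the Ler x Cvi embryo was 0.723, against 0.862 to 0.934 for the other 12 libraries, a description over windows that share libraries. The Col x Col endosperm also needs care. Its deposited counts gave CG values at 8430 windows, whereas its deposited window mean file holds 311463, and in the other 13 libraries both files hold the same number of windows. Where leaving out either library changed a result by much, the value without it is given.

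tRNA genes are read by RNA polymerase III from promoter elements inside the transcribed part. The A box lies near the start of the gene, the B box encodes the T loop of the tRNA and contains a CG in its usual form, and a run of T residues after the gene ends the transcript. In plants, CG methylation is copied at cell division by MET1, CHG methylation depends on CMT3, and CHH methylation on the DRM enzymes and CMT2. Methylation in all contexts is typical of silenced transposons, and methylation in CG alone is typical of the bodies of many protein-coding genes. In endosperm the maternal genome loses part of its methylation through the glycosylase DEMETER.

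The genes fell into 4 sets by position and sequence. Runs of at least 10 tRNA genes with gaps of at most 3000 nt were taken as clusters, and chromosome 1 held both of those found. The Pro cluster had 20 tRNA-Pro genes between positions 10089437 and 10102064 of chromosome 1, all on the plus strand, with a median gap of 389 nt. The Tyr-Tyr-Ser cluster had 54 tRNA-Tyr and 27 tRNA-Ser genes between 21268787 and 21308471 of chromosome 1, also all on the plus strand, with a median gap of 373 nt. A further 23 genes, all on chromosome 2 between 3255832 and 3503608, were copies identical to mitochondrial tRNA genes and were kept apart. The remaining 501 genes are called dispersed here. They include 3 shorter runs of tRNA-Pro genes.

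The sequences of the genes that the results turn on are printed first, with the B box in capitals, from the TAIR10.1 RefSeq genome. The first pair shows the repeated unit of the Pro cluster, found in 34 identical copies in the genome of which 16 are in the cluster, and a variant with another anticodon that differs from it at 2 of 72 bases and has 9 copies.
AT1G28740 tRNA-Pro (TGG): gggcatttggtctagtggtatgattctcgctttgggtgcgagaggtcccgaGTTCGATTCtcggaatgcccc
AT1G28870 tRNA-Pro (AGG): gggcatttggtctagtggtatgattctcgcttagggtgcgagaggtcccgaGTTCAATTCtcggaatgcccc
In the variant the B box carries no CG. The next set gives the repeated units of the Tyr-Tyr-Ser cluster, with 19 identical copies of the tRNA-Tyr gene and 20 of the first tRNA-Ser gene in the genome, and a tRNA-Ser gene of the cluster with an altered B box that differs from the first at 5 of 82 bases.
AT1G56750 tRNA-Tyr (GTA): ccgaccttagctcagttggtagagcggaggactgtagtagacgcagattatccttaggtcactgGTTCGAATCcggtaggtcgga
AT1G56760 tRNA-Ser (AGA): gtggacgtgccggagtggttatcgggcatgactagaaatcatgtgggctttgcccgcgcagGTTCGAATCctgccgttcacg
AT1G57270 tRNA-Ser (AGA): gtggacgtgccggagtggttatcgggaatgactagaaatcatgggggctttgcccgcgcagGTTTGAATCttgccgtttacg
The last set gives 4 dispersed genes whose windows were highly methylated in at least 1 selfed embryo. AT3G55735 has no match to the B box searched and is printed without capitals.
AT3G55735 tRNA-Met (CAT): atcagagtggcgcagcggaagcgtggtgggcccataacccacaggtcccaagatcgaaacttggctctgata
AT5G20858 tRNA-Cys (GCA): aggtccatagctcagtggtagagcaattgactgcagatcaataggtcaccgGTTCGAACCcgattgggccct
AT4G08345 tRNA-Leu (TAG): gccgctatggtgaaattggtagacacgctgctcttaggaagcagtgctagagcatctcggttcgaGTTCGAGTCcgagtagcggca
AT1G22320 tRNA-Met (CAT): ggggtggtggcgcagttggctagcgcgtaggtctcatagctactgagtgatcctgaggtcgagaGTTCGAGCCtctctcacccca

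The promoter elements were found in most genes of the clusters and of the dispersed set. The B box, searched as GTTCGANNC, was found in 85.0% of Pro cluster genes, 84.0% of Tyr-Tyr-Ser genes, 77.4% of dispersed genes and 82.6% of mitochondrial copies. On both strands it occurred in 62.1% of tRNA windows, 1.86% of flank windows of dispersed genes and 1.82% of all nuclear windows. The GTTCAA form was carried by 2 genes of the Pro cluster, and the GTTTGA form by 7 of the 27 tRNA-Ser genes of the Tyr-Tyr-Ser cluster. The consensus of the A box was matched by all 20 Pro cluster genes, by 54 of 54 tRNA-Tyr but 2 of 27 tRNA-Ser genes of the other cluster, and by 93.6% of dispersed genes. A missing match says only that these letters were not found. A terminator, TTTT within 25 nt after the gene, followed 95.0%, 100% and 94.4% of the genes of the Pro cluster, the Tyr-Tyr-Ser cluster and the dispersed set, but 21.7% of the mitochondrial copies.

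The sets differed most in how far reads could be placed on them. Of the bisulfite-converted 80 nt stretches of a window, the share that occurred once in the genome had a median of 94.9% in the Pro cluster and 99.3% in dispersed genes, against 0 in the Tyr-Tyr-Ser cluster and 0 in the mitochondrial copies. At 18 of 20 Pro cluster genes and 492 of 501 dispersed genes at least 90% of the window was unique. No gene of the Tyr-Tyr-Ser cluster reached that share.

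Dispersed tRNA genes were low in CG methylation, and lower than the DNA around them. In the embryos the mean over dispersed tRNA windows was 3.36% in Ler x Cvi, 3.78% in Cvi x Col, 3.89% in Col x Cvi, 3.39% in Cvi x Cvi, 3.94% in Ler x Ler and 4.58% in Col x Col, and 9.0% in the Cvi x Ler embryo that stood apart. Their flank windows had 8.26% (Cvi x Cvi) to 17.4% (Col x Col), with a median of 13.0% over the 7 embryos. The tRNA windows were lower in all 7 embryos, including Cvi x Ler, and the ranges of tRNA and flank overlapped only through that library. Averaged over crosses, tRNA windows had 4.56% against 13.4% in flank windows, a difference of -8.88 percentage points (SD 3.67 over 7 crosses, two-sided exact sign-flip permutation test, p = 0.0156, the smallest possible with 7 crosses, adjusted p = 0.0234 over 6 tests). Crosses that share a parent are not fully independent, and these p-values measure only the spread between such libraries.

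In endosperm the same contrast held in 6 of 7 crosses. Dispersed tRNA windows had 2.36% in Cvi x Ler, 2.90% in Ler x Cvi, 1.86% in Cvi x Col, 1.60% in Col x Cvi, 1.36% in Cvi x Cvi and 2.25% in Ler x Ler, against 4.90% (Cvi x Cvi) to 12.6% (Ler x Ler) in flank. The Col x Col endosperm went the other way, with 15.0% over 20 tRNA windows and 7.62% over 42 flank windows. The mean difference over 7 crosses was -4.59 points (SD 5.70, exact permutation test, adjusted p = 0.1125), which did not pass the threshold of 0.05. Without the Col x Col library it was -6.59 points (6 of 6 lower, exact permutation test, adjusted p = 0.03125), and this one library decided the call. In the window mean file of the same Col x Col endosperm, dispersed tRNA windows had 1.92% over 525 windows, against 12.1% over 2429 flank windows, and the difference there was -10.2 points, in the direction of the other crosses. The 15.0% thus describes the few windows that the count file holds.

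The other contexts showed the same direction at much lower levels. CHG methylation of dispersed tRNA windows averaged 1.81% in embryos against 3.17% in flank (difference -1.36 points, SD 0.389, lower in 7 of 7, exact permutation test, adjusted p = 0.0234). In endosperm CHG was 1.92% against 2.36% (difference -0.445 points, SD 1.59, exact permutation test, adjusted p = 0.484), which did not pass. CHH methylation was 0.719% against 1.16% in endosperm and 0.878% against 1.22% in embryos. Both CHH differences, -0.441 and -0.344 points, were lower in 7 of 7 crosses with an adjusted p = 0.0234 by the exact permutation test. Without the Col x Col library the endosperm difference was -0.250 points (exact permutation test, adjusted p = 0.03125). The CHH differences did not pass when only uniquely mappable windows were used, where they were -0.214 and -0.100 points (exact permutation test, adjusted p = 0.206 and 0.0938).

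**Figure D1:**
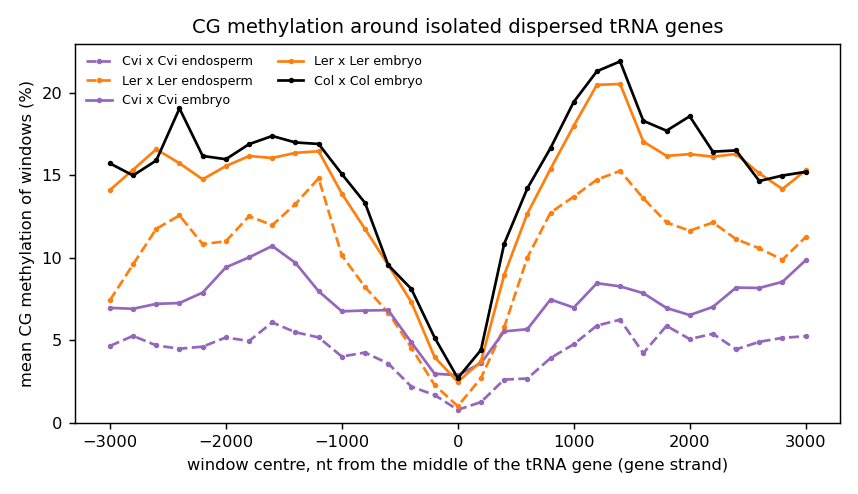
Mean CG methylation (%) of windows against the distance of the window centre from the middle of the gene (nt, in the direction of the gene), for the 432 dispersed tRNA genes with no other tRNA gene within 3000 nt. Lines are the 5 selfed libraries with deep files, and every line has its minimum at the gene, between 0.785% (Cvi x Cvi endosperm) and 2.89% (Cvi x Cvi embryo).

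The plot of CG methylation by distance shows how narrow the low stretch was. At the gene itself the mean was 0.785% in the Cvi x Cvi endosperm, 1.01% in the Ler x Ler endosperm, 2.89% in the Cvi x Cvi embryo, 2.48% in the Ler x Ler embryo and 2.71% in the Col x Col embryo. In the Col x Col embryo it was 8.10% at 400 nt before the gene, 10.8% at 400 nt after it, 17.4% at 1600 nt before and 21.9% at 1400 nt after. In the Ler x Ler embryo the outer values were 16.0% and 20.5% at the same 2 distances. The Cvi x Cvi embryo had a shallower dip, with 10.7% at 1600 nt before the gene and 8.26% at 1400 nt after it. Within 200 nt of the gene the 5 libraries had at most 5.16%, and the dip was present in each of them.

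The contrast was also present within annotation classes. Of the 931 dispersed tRNA windows, 509 overlap a protein-coding gene. In embryos other than Cvi x Ler, the tRNA windows in protein-coding genes had 0.820% to 1.72% CG methylation, against 6.45% to 16.7% for flank windows in protein-coding genes. The corresponding values outside protein-coding genes were 5.84% to 8.05% for tRNA windows and 14.1% to 19.9% for flank. In the Cvi x Ler embryo the tRNA windows had 7.30% inside and 11.1% outside protein-coding genes. In neither class did the ranges of tRNA and flank overlap once that library was set aside.

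Other short RNA genes give a scale for these levels. Windows over snoRNA genes, whose products guide the modification of ribosomal RNA, had 2.63% to 3.54% CG methylation in embryos other than Cvi x Ler and 6.98% in Cvi x Ler. Windows over snRNA genes, which encode the RNAs of the spliceosome and include the U6 genes read by RNA polymerase III, had 4.42% to 10.2% in embryos. Protein-coding windows had 7.39% to 17.0% and all nuclear windows 17.1% to 28.3%. Dispersed tRNA windows therefore sat near snoRNA windows and below the other classes in every embryo but Cvi x Ler, as a description with no test.

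**Figure D2:**
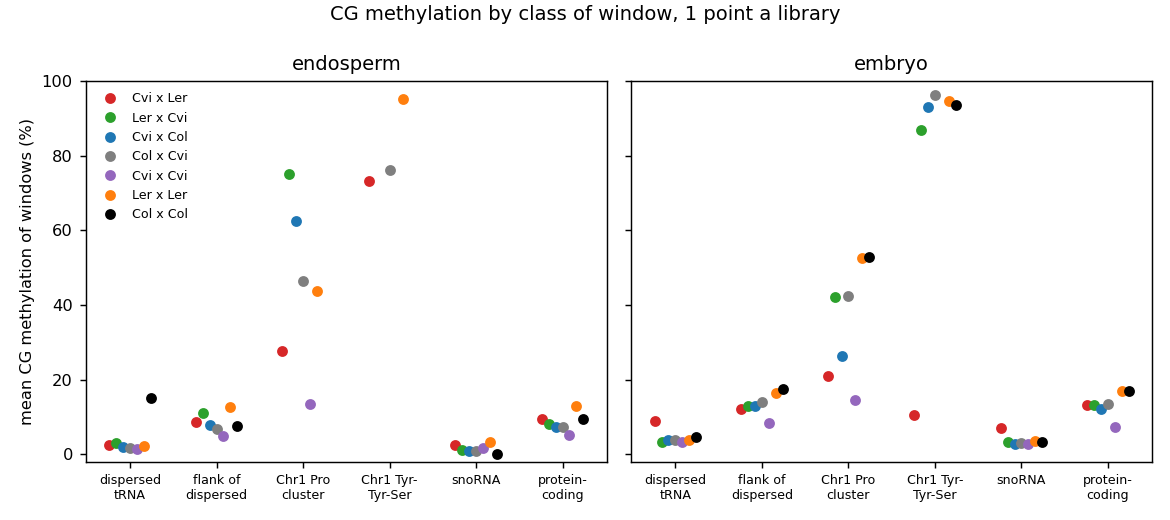
Mean CG methylation (%) of the windows of each class, 1 point a library, endosperm on the left and embryo on the right. Dispersed tRNA windows lie between 3.36% and 9.0% in embryos, whereas Pro cluster windows lie between 14.5% and 52.8%. The Tyr-Tyr-Ser points rest on 1 to 15 windows each, except the Cvi x Ler embryo with 81.

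The clusters of chromosome 1 had higher CG methylation values than dispersed genes in every cross with values. The tRNA windows of both clusters averaged 40.1% CG methylation in embryos against 4.56% in dispersed genes, a difference of 35.5 points (SD 21.5, higher in 7 of 7 crosses). The smallest difference, 4.37 points, was in Cvi x Ler and the largest, 60.4 points, in Col x Col. The exact permutation test gave p = 0.0156 and an adjusted p = 0.09375 over 6 tests, so the adjusted value did not pass although every embryo had the same direction. In endosperm, where the Col x Col library had no cluster window with calls, the clusters had 47.9% against 2.05% in dispersed genes (difference 45.8 points, higher in 6 of 6, exact permutation test, p = 0.03125, the smallest possible with 6 crosses, adjusted p = 0.09375). The largest differences were 72.1 points in Ler x Cvi, 60.5 in Cvi x Col and 59.7 in Col x Cvi. Those endosperms had values at only 1, 3 and 1 of the 20 Pro cluster genes. The deeper endosperms had 12.1 points (Cvi x Cvi), 26.6 (Cvi x Ler) and 43.9 (Ler x Ler). Over windows with calls in all embryos the embryo difference was 27.5 points, and over uniquely mappable windows 31.4 points, and both passed.

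In CHG and CHH no difference between clusters and dispersed genes passed the test over all their windows. In CHG the clusters had 4.73% against 1.81% in embryos (difference 2.92 points, exact permutation test, adjusted p = 0.1875) and 1.55% against 1.09% in endosperm (difference 0.463 points, adjusted p = 0.8125 by the same permutation test). The embryo CHG difference was -1.19 points once only uniquely mappable windows were used, since the Tyr-Tyr-Ser windows then dropped out, and -0.789 points over windows shared by all embryos, and both passed with the clusters lower (exact permutation test, adjusted p = 0.0469 each). CHH differences were 0.267 points in embryos (0.0754 without Cvi x Ler) and 0.232 points in endosperm and did not pass.

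The Pro cluster carried this difference at windows where reads could be placed. Of its 35 windows, those with calls had 14.5% CG methylation in the Cvi x Cvi embryo (23 windows), 52.7% in Ler x Ler and 52.8% in Col x Col (35 windows each). Hybrid embryos had 42.3% in Ler x Cvi, 26.3% in Cvi x Col and 42.5% in Col x Cvi, over 33 to 35 windows, and Cvi x Ler had 20.9% over 32. Over the windows with calls, the selfed Cvi embryo was thus lowest and the selfed Ler and Col embryos highest. The Cvi x Cvi embryo had no calls in the windows that cover most of the last genes of the cluster. Among endosperms with more than 3 windows, Cvi x Ler had 27.6% over 31 windows, Cvi x Cvi 13.5% over 32 and Ler x Ler 43.8% over 21. Pooled over all calls, the Cvi x Cvi embryo had 10.3% of 408 calls methylated (95% Wilson interval 7.71% to 13.6%) and the Col x Col embryo 55.0% of 2180 calls (52.9% to 57.1%). Such intervals cover counting error only.

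CHG methylation was near 0 in the same windows, between 0.135% and 0.497% in 6 embryos and 2.41% in the Cvi x Ler embryo. Some of its flank windows lie in the wider gaps inside the cluster. The flank windows had 1.18% to 3.94% CG methylation in embryos other than Cvi x Ler, where they had 14.7%. The windows between the genes of the cluster had 13.7% to 35.8% in embryos. CG methylation thus extended over windows between the genes and close to one, and had low means in the flank. In the widest gap, windows centred 5514 to 6714 nt from the start of the first gene had at most 2.15% in the selfed embryos. The flank window centred at 2114 nt had 53.8% in Col x Col and 0 in Ler x Ler. Of the 20 genes, 11 lie inside a non-coding RNA gene on the opposite strand, AT1G28715 (chromosome 1, 10095813 to 10102928), and 1 inside the protein-coding gene AT1G28710.

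**Figure D3:**
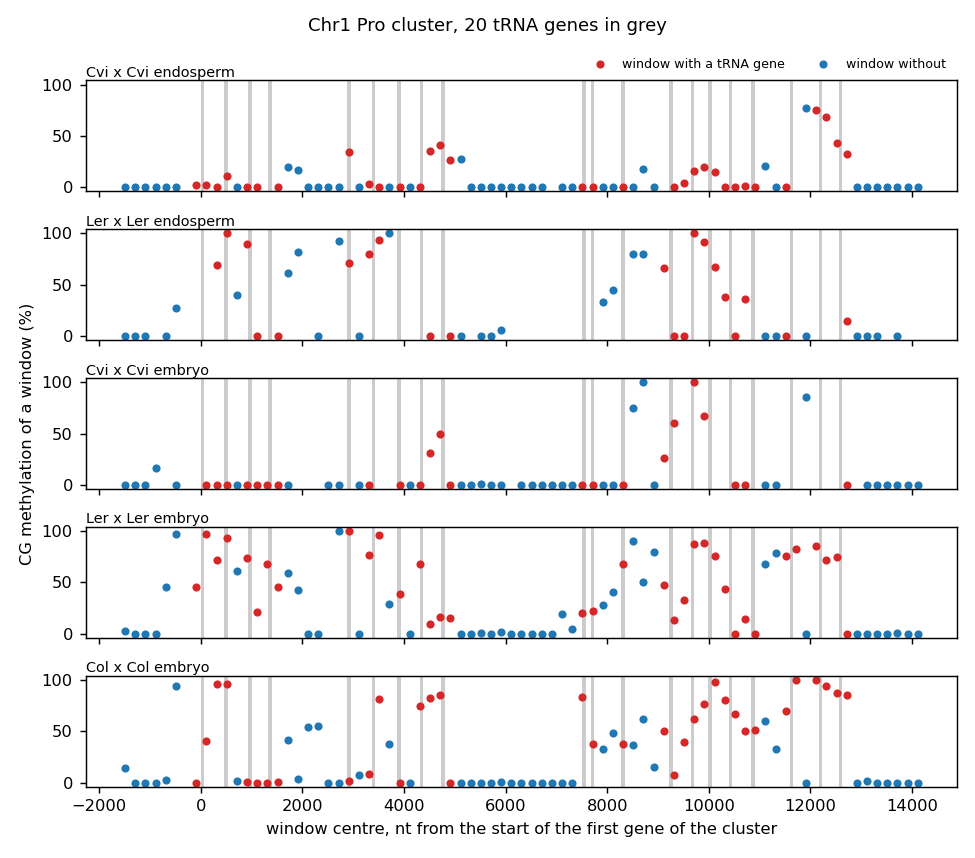
CG methylation (%) of each window along the Pro cluster, by the distance of its centre from the start of the first gene (nt), in 2 endosperm and 3 embryo libraries from selfed crosses. Grey bars mark the 20 tRNA genes, red points windows with a tRNA gene and blue points windows without. High and unmethylated windows alternate within the cluster, and most windows beyond it are near 0, apart from ones just before the first gene in the Ler x Ler and Col x Col embryos.

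Levels inside the cluster were uneven from gene to gene and differed by strain, as the plot along the cluster shows. Of the genes with values, 3 of 14 had over 50% CG methylation and 10 had under 5% in the Cvi x Cvi embryo. In the Ler x Ler embryo 13 of 20 had over 50% and 1 had under 5%, and in the Col x Col embryo 11 of 20 had over 50% and 4 had under 5%. The first, middle and last of the 14 genes whose own window had values in all 3 selfed embryos are given here. AT1G28720, the first, had 0 of 20 calls methylated in Cvi x Cvi, which allows a level of up to 15.0%, 96.8% in Ler x Ler and 41.0% in Col x Col. AT1G28810, in the middle, had 50.0% of 10 calls, 16.3% of 43 and 85.7% of 7. AT1G28870, the last and the gene with the altered B box printed above, had 66.7%, 88.9% and 76.9%. The order of the strains was not the same at all 3 genes. The 5 genes after AT1G28870 had no calls in their own windows in the Cvi x Cvi embryo, and had 0 (of 9 calls, which allows up to 33.3%) to 85.7% in Ler x Ler and 51.3% to 100% in Col x Col. In the Cvi x Cvi endosperm these windows had 0 to 75.0%, with the higher values at the last genes.

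Reciprocal hybrids were compared at the 23 windows with calls in the 6 embryos other than Cvi x Ler. At these windows the mean was 37.7% in Ler x Cvi, 20.1% in Cvi x Col, 36.8% in Col x Cvi, 14.5% in Cvi x Cvi, 46.1% in Ler x Ler and 45.3% in Col x Col. The mean of the selfed parents was 29.9% for Col with Cvi and 30.3% for Ler with Cvi. Hybrids with Cvi as the male parent lay above it, by 6.88 points in Col x Cvi and 7.38 points in Ler x Cvi, and the Cvi x Col embryo lay 9.88 points below. The windows of a library varied with an SD of 18.7 to 36.3 points over these 23 windows, and with 1 library a cross no test of the direction of the cross was possible. Dispersed tRNA windows, over 609 shared windows, were within 0.233 points of the parental mean in all 3 hybrids.

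The 3 shorter tRNA-Pro runs counted among the dispersed genes were not alike. The run of 6 genes on chromosome 1 between 17156607 and 17162093 had 36.3% (Ler x Cvi), 18.1% (Cvi x Col), 48.6% (Col x Cvi), 22.1% (Cvi x Cvi), 47.3% (Ler x Ler) and 55.8% (Col x Col) in embryos, with 81.0% in Cvi x Ler. The run of 6 genes that follows the Pro cluster, between 10106090 and 10108781, had 9.09% in Cvi x Cvi, 22.1% in Ler x Ler and 3.49% in Col x Col. The run of 9 genes on chromosome 2 between 14350386 and 14356592 had 0 over 3 windows in Cvi x Cvi, 2.55% in Ler x Ler and 14.1% in Col x Col. In embryos other than Cvi x Ler, CHG methylation was at most 0.522% in all 3 runs. The first run had levels in the range of the Pro cluster, and the other 2 were lower in most libraries.

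The Tyr-Tyr-Ser cluster could be read at few of its 147 windows. In embryos the mean CG methylation was 93.6% over 15 windows in Col x Col, 96.1% over 12 in Col x Cvi, 93.2% over 3 in Cvi x Col, 86.9% over 3 in Ler x Cvi and 94.7% over 1 in Ler x Ler, and no window had calls in Cvi x Cvi. The Col x Col embryo value rests on 408 calls, of which 93.9% were methylated (91.1% to 95.8% by the 95% Wilson interval). The Cvi x Ler embryo was the exception, with values at 81 windows and 10.4% CG methylation. The endosperm values were 95.3% in Ler x Ler (1 window), 76.0% in Col x Cvi (2 windows) and 73.3% in Cvi x Ler (1 window). Unlike the Pro cluster, these windows also carried CHG methylation, 33.3% in the Col x Col embryo and 43.5% in Col x Cvi. The windows with calls in the other 6 embryos were at most 15 of 147, and whether the rest of the cluster has the same level cannot be told from these libraries.

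Among dispersed genes, few were highly methylated in the window that covers most of the gene, which gives each gene's value here. At least 15 CG calls in each of the 3 selfed embryos were available for 203 of the 501 genes. Their mean over the 3 embryos was under 5% at 188 genes, between 5% and 50% at 12 and over 50% at 3, and 84 genes had no methylated call in any of the 3. By amino acid, the genes for tRNA-Cys had the highest means, 20.3% in Cvi x Cvi, 29.8% in Ler x Ler and 27.0% in Col x Col. tRNA-Met had 17.8%, 9.61% and 10.0%, tRNA-Pro 7.61%, 11.1% and 12.7%, and tRNA-Asp 10.2%, 7.04% and 10.4% in the same order of embryos. tRNA-Lys genes were at 0.133%, 0.144% and 0.181%, and tRNA-His genes were at 0.357%, 0.0758% and 0. No gene of these families reached 5% CG methylation in that window. The next window along could differ, as 2 tRNA-Lys genes picked after their values were seen show. The window of AT3G30345 from 11959201 on chromosome 3, with 39 of the 73 nt of the gene, had 79.3% in Cvi x Cvi and 81.6% in Col x Col. The window of AT4G28362 from 14032201 on chromosome 4, with 11 of its 72 nt, had 41.9% in Ler x Ler. In CHH, the tRNA-His gene AT4G39345 had 25.7% of 175 calls in Col x Col against 0 of 156 in Ler x Ler. That window, from 18293601 on chromosome 4, holds the whole gene. Medians were 0 in the tRNA-Met, tRNA-Pro and tRNA-Asp families of all 3 embryos, so these means came from a minority of genes.

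The 8 dispersed genes with the highest mean are described without a test, since that mean chose them. AT3G55735, a tRNA-Met gene on chromosome 3, had 88.9% in Cvi x Cvi, 85.7% in Ler x Ler and 82.4% in Col x Col, with hybrids at 72.3% (Ler x Cvi), 68.6% (Cvi x Col) and 58.3% (Col x Cvi). AT5G20858, a tRNA-Cys gene on chromosome 5, had 62.5%, 90% and 93.5% in the same 3 selfed embryos. Both were methylated in CHG as well, at 40.9%, 41.9% and 28.6% for AT3G55735 and 34.8%, 59.5% and 29.5% for AT5G20858. These were the only genes of the 8 with over 50% CG methylation in all 3 selfed embryos.

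The other genes of that list differed between strains or were intermediate. AT4G34695 (tRNA-Glu) had 57.9%, 60.4% and 29.9% in Cvi x Cvi, Ler x Ler and Col x Col, and AT1G68950 (tRNA-Phe) had 16.0%, 39.4% and 34.4%. AT1G28990 (tRNA-Pro, in the run after the Pro cluster) had 50.0%, 89.3% and 10.3%, and AT1G45244 (tRNA-Pro, in the run from 17156607) had 0 of 15 calls, which allows up to 20.0%, and then 75.6% and 66.7%. AT1G76000 (tRNA-Asp) had 91.7%, 0 and 44.3%. The lowest mean of the 8 was 29.9% in AT1G68950, and the next gene below was AT1G22320 with 26.2%. CHG methylation was under 10% at AT4G34695, AT1G68950, AT1G28990 and AT1G45244 in these 3 embryos. The next window of AT1G68950, from 25928201 on chromosome 1, holds 68 of its 73 nt. It had CHH methylation of 32.5% in Cvi x Cvi, 11.8% in Ler x Ler and 24.3% in Col x Col.

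AT4G08345 (tRNA-Leu) needs separate reading. It had 3.14% in Cvi x Cvi over 573 calls, 88.7% in Ler x Ler over 53 calls and 95.5% in Col x Col over 88 calls, and 1.36% to 6.18% in the 4 hybrid embryos over 599 or more calls each. The difference of -92.3 points between Cvi and Col had an adjusted p = 7.79e-79 by Fisher's exact test. A run of 67 of its 86 nt is identical to the plastid genome, and 41.9% of its window is unique. Low levels came with high counts in every library with a Cvi parent that had calls. Plastid reads and nuclear reads cannot be told apart there.

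**Figure D4:**
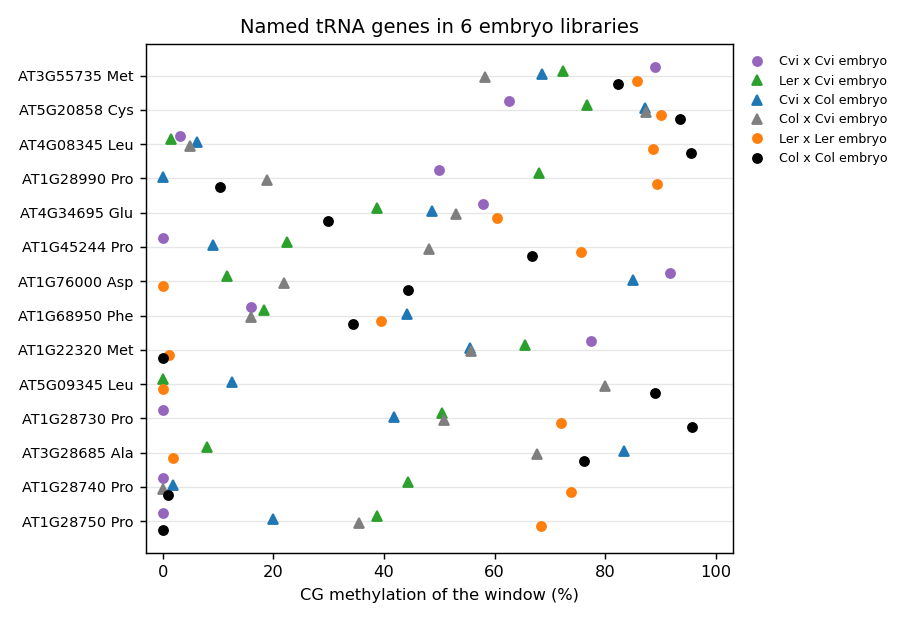
CG methylation (%) of the window of each named tRNA gene in the embryo libraries other than Cvi x Ler, with circles for selfed crosses and triangles for hybrids. AT3G55735 and AT5G20858 are above 50% in all 6, whereas the other genes spread between libraries, and AT1G22320 is at 55.6% to 77.5% in every plotted library with a Cvi parent.

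Strain differences were counted with Fisher's exact test on the calls of 2 libraries, and a window was called at an adjusted p under 0.01 over all nuclear windows where the libraries also differed by 35 points or more (10 in CHH). With 1 library a group, such calls compare libraries and not strains, and neighbouring windows share calls because they overlap by 100 nt. In CG, 17 of 409 tRNA windows tested were called between Cvi x Cvi and Col x Col, 6 higher and 11 lower in Cvi, where 9.82% of all windows were called. Between Cvi x Cvi and Ler x Ler, 13 of 398 were called, 6 higher and 7 lower in Cvi, with 9.71% of all windows called. Between Ler x Ler and Col x Col, 26 of 880 were called, 10 higher and 16 lower in Ler, with 8.29% of all windows called. The shares of tRNA windows, 4.16%, 3.27% and 2.95%, were below those backgrounds in all 3 comparisons, which share libraries.

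The calls lay unevenly between the sets. Dispersed tRNA windows were called at 11 of 389, 9 of 378 and 17 of 844 in the 3 comparisons, or 2.83%, 2.38% and 2.01%, where their flank windows were called at 11.7%, 11.1% and 9.88%. Pro cluster windows were called at 6 of 11 (all lower in Cvi than in Col), 4 of 11 (all lower in Cvi than in Ler) and 9 of 27 (5 higher and 4 lower in Ler than in Col). The Tyr-Tyr-Ser cluster had no window that could be tested. Cvi therefore had the lower level at every called Pro window, and Ler and Col differed in both directions.

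In CHG few tRNA windows were called. There were 4 of 394 between Cvi x Cvi and Col x Col (1.94% of all windows), 1 of 385 between Cvi x Cvi and Ler x Ler (1.70%) and 2 of 898 between Ler x Ler and Col x Col (1.26%). None lay in the Pro cluster. In CHH there were 6 of 528 (background 2.68%), 9 of 520 (2.22%) and 9 of 954 (2.22%) in the same order. All 6 CHH calls between Cvi and Col were higher in Cvi.

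Besides AT4G08345, these were the genes whose windows had the smallest adjusted p between selfed embryos in CG. AT1G22320, a tRNA-Met gene on the minus strand of chromosome 1 (7884370 to 7884454), had 77.5% of 151 CG calls methylated in the Cvi x Cvi embryo (95% Wilson interval 70.2% to 83.4%), 1.20% of 83 in Ler x Ler and 0 of 135 in Col x Col, which allows up to 2.22%. The difference of 77.5 points between Cvi and Col had an adjusted p = 1.17e-46 by Fisher's exact test. The hybrid embryos Ler x Cvi (65.4%), Cvi x Col (55.6%) and Col x Cvi (55.6%) lay between their parents, and Cvi x Ler (83.3%) lay above its Cvi parent. The same window had 62.0% CHG methylation in Cvi x Cvi against 0 of 59 calls in Ler x Ler and 0 of 84 in Col x Col, which allow up to 5.08% and 3.57%. Its sequence is printed here, plus strand of TAIR10.1 with CG in capitals, because it holds the clearest presence and absence of methylation at a single dispersed gene, with 10 CG sites to count.
chr1:7884201-7884500: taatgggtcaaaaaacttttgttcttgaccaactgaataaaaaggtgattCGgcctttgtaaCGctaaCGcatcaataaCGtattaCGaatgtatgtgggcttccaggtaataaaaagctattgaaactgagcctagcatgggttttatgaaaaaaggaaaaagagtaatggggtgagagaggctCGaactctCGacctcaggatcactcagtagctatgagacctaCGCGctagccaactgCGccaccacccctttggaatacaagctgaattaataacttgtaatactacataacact
The tRNA gene occupies the last part of this window on the opposite strand, and its B box is read there as the reverse complement.

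Windows of AT5G09345 and AT3G28685 were low in the Ler x Ler embryo and high in Col x Col. They hold 34 of 84 nt and 70 of 73 nt of these genes and otherwise the DNA beside them, and the windows that cover most of the genes had 27.8% and 9.21% CG methylation in Col x Col. AT5G09345 (tRNA-Leu, window 2898601 to 2898900 of chromosome 5) had 0 of 106 CG calls methylated in the Ler x Ler embryo, which allows up to 2.83%, against 89.0% of 118 in Col x Col (difference -89.0 points, Fisher's exact test, adjusted p = 3.94e-47). No call was present in Cvi x Cvi. AT3G28685 (tRNA-Ala, window 10752201 to 10752500 of chromosome 3) had 1.79% in Ler x Ler against 76.1% in Col x Col (difference -74.4 points, Fisher's exact test, adjusted p = 1.75e-20), and 8.05% in Ler x Cvi against 67.6% in Col x Cvi. CHG methylation had the same direction, with 0 of 34 calls in Ler x Ler (up to 8.82%) against 70.7% in Col x Col at AT5G09345, and 0 of 24 calls (up to 12.5%) against 46.9% at AT3G28685.

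AT1G76000, a tRNA-Asp gene with 21 identical copies in the genome, was highest in Cvi. It had 91.7% of 24 calls in Cvi x Cvi against 0 of 94 in Ler x Ler, which allows up to 3.19% (difference 91.7 points, Fisher's exact test, adjusted p = 7.33e-20). Col x Col was between them with 44.3% of 79. In hybrid embryos with Cvi as the female parent it had 72.5% (Cvi x Ler) and 85.0% (Cvi x Col), whereas with Cvi as the male parent it had 11.7% (Ler x Cvi) and 21.8% (Col x Cvi). The values of the reciprocal hybrids do not overlap, with 1 library each, and the difference was not tested over crosses. The Cvi x Ler embryo is the library that stood apart. Without it, Cvi x Col is the only hybrid embryo with Cvi as the female parent.

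The named Pro cluster genes lie next to each other at its start. The window called for AT1G28730 holds 3 of its 72 nt and otherwise the DNA beside it. It had 0 of 39 calls in Cvi x Cvi, which allows up to 7.69%, against 95.7% of 117 in Col x Col (difference -95.7 points, Fisher's exact test, adjusted p = 2.26e-29), and 72.0% in Ler x Ler. The window with the whole gene had 0 of 14 calls methylated in Cvi x Cvi, which allows up to 21.4%, 93.5% in Ler x Ler and 96.2% in Col x Col. AT1G28740, whose sequence opens the set printed above, had 73.8% of 42 in Ler x Ler against 1.00% of 100 in Col x Col (difference 72.8 points, Fisher's exact test, adjusted p = 4.91e-19), and 0 of 49 in Cvi x Cvi, which allows up to 6.12%. AT1G28750 had 68.3% of 60 in Ler x Ler against 0 of 75 in Col x Col, which allows up to 4.0% (difference 68.3 points, Fisher's exact test, adjusted p = 1.94e-18). AT1G28740 and AT1G28750, which have the same sequence, had similar values in Ler x Ler and in Col x Col. Not every copy of that sequence had these values, since the dispersed copy AT1G45244 had 75.6% in Ler x Ler and 66.7% in Col x Col. CHG methylation in these 3 windows was at most 5.60% in the selfed embryos. The window of AT1G28740 is printed here with CG in capitals, to show that its 11 CG sites lie both inside the gene and in the DNA before it.
chr1:10090201-10090500: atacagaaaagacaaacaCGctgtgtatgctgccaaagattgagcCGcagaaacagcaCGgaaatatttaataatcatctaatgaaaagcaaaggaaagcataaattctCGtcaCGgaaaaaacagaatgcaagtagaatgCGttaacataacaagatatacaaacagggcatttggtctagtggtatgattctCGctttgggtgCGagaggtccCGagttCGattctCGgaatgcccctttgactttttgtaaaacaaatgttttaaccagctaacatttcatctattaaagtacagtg

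Endosperm and embryo were compared at windows with calls in both tissues of a cross. Dispersed tRNA windows had a mean CG methylation of 3.90% in endosperm against 6.18% in embryo, a difference of -2.28 points (SD 2.60, lower in 6 of 7 crosses). The exact permutation test gave p = 0.03125 and an adjusted p = 0.0625 over 6 tests, which did not pass. The largest differences, -6.51 points in Cvi x Ler and -5.22 points in Col x Col, came from the library that stood apart and from the shallowest one. The CHG and CHH differences were -1.77 points and -0.519 points, each lower in 6 of 7 crosses with an adjusted p = 0.0625 by the same permutation test. Leaving out single crosses gave CG differences of -2.78 to -1.58 points. Without Col x Col the CHG difference was -0.628 points and the CHH difference -0.294 points (exact permutation test, adjusted p = 0.125 each), so that cross carried much of both.

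The clusters had no common direction between tissues. Their CG methylation was 47.1% in endosperm against 43.6% in embryo (difference 3.51 points, SD 14.8, lower in 3 and higher in 3 of 6 crosses, exact permutation test, adjusted p = 0.5625). In the crosses where the endosperm files are deep, the differences were -7.49 points in Ler x Ler, -5.67 points in Cvi x Cvi and 6.17 points in Cvi x Ler, whose embryo stood apart. The other crosses had 26.1 points (Ler x Cvi), 14.4 (Cvi x Col) and -12.5 (Col x Cvi). Their endosperms had values at only 1, 3 and 1 of the 20 Pro cluster genes, so these crosses say little about direction. The tissue difference of the clusters minus that of dispersed genes was 5.30 points in CG, -0.0736 points in CHG and -0.0180 points in CHH, and none passed (exact permutation test over 6 crosses, adjusted p = 0.9375 each). These 3 values had SDs of 14.5, 1.02 and 0.541 points over crosses, which exceed the values themselves.

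Calls at tRNA windows between tissues of the deep selfed crosses were all in one direction. In Cvi x Cvi 6 of 382 tRNA windows tested were called in CG, all lower in endosperm, where 7.60% of all windows were called. In Ler x Ler 3 of 436 were called, all lower in endosperm, against 6.01% of all windows. In CHG 1 of 372 (1.95% of all windows) and 2 of 414 (1.85%) were called in Cvi x Cvi and Ler x Ler, and in CHH 8 of 513 (3.21%) and 8 of 584 (2.26%). All of these were lower in endosperm as well. The direction was not particular to tRNA windows. Of the called flank windows of dispersed genes in CG, 74 of 75 were lower in endosperm in Cvi x Cvi and 62 of 70 in Ler x Ler. The shares of tRNA windows called in CG, 1.57% and 0.688%, were below the background in both crosses.

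Of the windows called, those of AT3G26747 and AT1G33370 were highly methylated in all 3 selfed embryos, at 90.9% and 85.9% in Col x Col and the values below in the others. They hold 57 of the 74 nt of AT3G26747 and 22 of the 69 nt of AT1G33370. AT3G26747 (tRNA-Val, window 9839201 to 9839500 of chromosome 3) had 15.0% in endosperm against 81.8% in embryo of Cvi x Cvi (difference -66.8 points, Fisher's exact test, adjusted p = 3.07e-07), 38.1% against 92.1% in Ler x Ler and 32.6% against 94.4% in Cvi x Ler. AT1G33370 (tRNA-Gly, window 12097001 to 12097300 of chromosome 1) had 20.8% against 85.7% in Cvi x Cvi (difference -64.9 points, Fisher's exact test, adjusted p = 1.32e-06), 29.6% against 87.8% in Ler x Ler and 24.0% against 61.9% in Cvi x Ler. At both windows all 3 crosses had the lower value in endosperm. The window with most of AT3G26747 had 28.6% of 7 calls in the Cvi x Cvi embryo, 83.9% in Ler x Ler and 87.8% in Col x Col.

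Among the other tissue calls, those given for further crosses were less even. AT1G42120 and AT1G76000 are given for Cvi x Cvi alone. AT5G20858 (tRNA-Cys) had 31.2% against 90% in Ler x Ler (difference -58.8 points, Fisher's exact test, adjusted p = 0.000505) and 28.4% against 62.5% in Cvi x Cvi, but 57.4% against 50.6% in Cvi x Ler. AT1G42120 (tRNA-Met) had 5.26% against 80.6% in Cvi x Cvi (difference -75.4 points, Fisher's exact test, adjusted p = 4.22e-06). The genes that were highest in Cvi among the selfed embryos, AT1G22320 and AT1G76000, had 21.1% against 77.5% and 23.3% against 91.7% in Cvi x Cvi (differences -56.4 and -68.3 points, Fisher's exact test, adjusted p = 1.05e-21 and 2.93e-07). At AT1G22320 endosperm was also lower in Cvi x Ler (41.5% against 83.3%) and Col x Cvi (38.1% against 55.6%). It was higher in Ler x Cvi (100% of 10 calls against 65.4%). In the Pro cluster, AT1G28870 was the only gene called, with 19.3% in endosperm against 66.7% of 15 calls in embryo of Cvi x Cvi (difference -47.3 points, Fisher's exact test, adjusted p = 0.00504), and it had 91.3% against 88.9% in Ler x Ler.

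**Figure D5:**
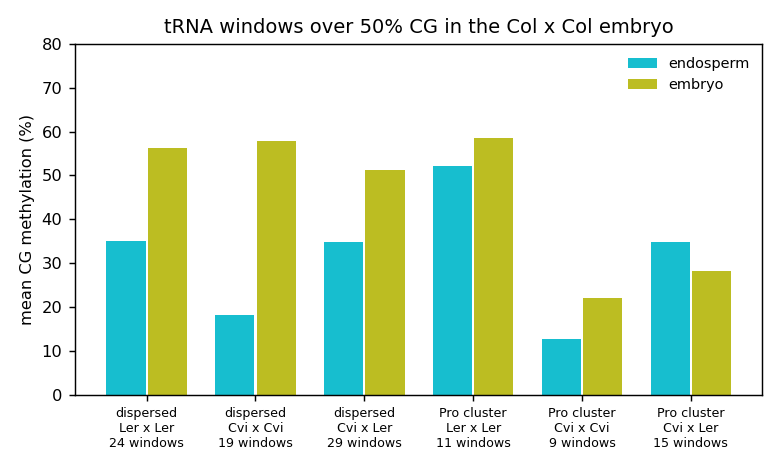
Mean CG methylation (%) in endosperm and embryo of 3 crosses, for tRNA windows that were over 50% methylated in the Col x Col embryo. Bars start at 0 and are means over the windows written below each pair. Dispersed windows are lower in endosperm in each cross, and Pro cluster windows are at 52.3% against 58.5%, 12.7% against 22.0% and 34.8% against 28.2%.

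Methylated windows were followed from a library that took no part in the comparison. As that library is an embryo, the choice favours windows that are high in embryos, and no set was chosen from an endosperm. In the Col x Col embryo 35 dispersed windows, at 26 genes, and 17 Pro cluster windows, at 11 genes, had over 50% CG methylation with at least 15 calls. The dispersed ones averaged 18.1% in endosperm against 57.8% in embryo of Cvi x Cvi (19 windows, 16 lower and 0 higher), 35.2% against 56.2% in Ler x Ler (24 windows, 17 lower and 5 higher) and 34.8% against 51.2% in Cvi x Ler (29 windows, 20 lower and 7 higher). The Pro cluster windows averaged 12.7% against 22.0% in Cvi x Cvi (9 windows, 2 lower and 3 higher), 52.3% against 58.5% in Ler x Ler (11 windows, 6 lower and 4 higher) and 34.8% against 28.2% in Cvi x Ler (15 windows, 5 lower and 8 higher). In the Col x Col embryo that chose them, the dispersed windows had a mean CHG methylation of 33.4% and the Pro cluster windows 0.604%. For scale, 754 flank windows chosen in the same way averaged 20.2% against 37.1%, 49.8% against 62.6% and 33.1% against 32.5% in endosperm and embryo of Cvi x Cvi, Ler x Ler and Cvi x Ler. Windows are not replicates, and these are descriptions of the libraries.

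The 23 mitochondrial copies on chromosome 2 cannot be read as nuclear genes alone. Mean CG methylation over their windows with calls was 2.75% in the Cvi x Col embryo, 13.4% in Col x Cvi and 22.1% in Col x Col, against 0.0909% to 0.246% in the Ler x Cvi, Cvi x Cvi and Ler x Ler embryos, over 10 or 12 windows each. The endosperms with a Col parent had 6.50% (Cvi x Col), 3.32% (Col x Cvi) and 9.30% (Col x Col), and the other endosperms 0 to 0.492%. Every library with a Col parent was therefore above every library without one, apart from the Cvi x Ler embryo, which had 44.9% over 26 windows. Windows of these copies are not unique in the genome, and calls from the mitochondrion and from the nuclear copy cannot be told apart.

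Only 5 of these copies had a CG value in any selfed embryo in the window that covers most of the gene. Among those 5, AT2G07764 (tRNA-Asn) had the highest CG level, 90% of 10 calls in the Col x Col embryo, with no call elsewhere. AT2G07792 (tRNA-Tyr) had 3.62% (387 calls) in the Cvi x Col embryo, 9.40% (585 calls) in Col x Cvi and 12.1% (463 calls) in Col x Col, against 0 to 0.278% in the embryos without a Col parent. AT2G07765 (tRNA-Tyr) and AT2G07763 (tRNA-Cys) had at most 3.25% in all embryos. Most calls at the last 3 genes were thus unmethylated in every library.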

How the data were processed

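Per the labels and the study's methods, the authors mapped bisulfite reads with Bismark (version not given in the sources used here) to TAIR10 for Col and Cvi and to a Ler genome for Ler, with Cvi substitutions taken into account, and kept unique, non-redundant reads. The deposited files hold counts of unmethylated and methylated calls per window of 300 nt, neighbours overlapping by 100 nt, over cytosines with at least 5 reads. The deposited window mean files hold a percent per window and served as an alternative.

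From the counts, the percent methylated was computed in windows with at least 5 calls and averaged over windows. Reads that fit repeated tRNA copies equally well are discarded by unique mapping, and few Tyr-Tyr-Ser windows hold calls outside the Cvi x Ler embryo. Windows of AT2G07792 and AT4G08345 hold many calls although they are not fully unique. tRNA genes, sequences and chromosomes came from TAIR10.1 RefSeq, whose nuclear coordinates match the files. Uniqueness was taken from bisulfite-converted 80 nt stretches of the reference, so strain sequence was not used. Differences were tested over crosses by two-sided exact sign-flip permutation with Benjamini-Hochberg adjustment. Windows were tested with Fisher's exact test (at least 15 calls in CG and CHG or 50 in CHH). Intervals are 95% Wilson, and 0 calls allow up to 3 counts. Code ran in Python 3.11.15 with numpy 2.4.6 and scipy 1.17.1 and was tested on simulated data.

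Named genes were the first, middle and last readable gene of a cluster, and the 8 dispersed genes highest over the selfed embryos. Up to 8 called genes for strains and for tissues in CG were added by adjusted p (each in its called window, which may hold part of the gene). The mitochondrial copies named had the highest and lowest CG among those with values in a selfed embryo. No Tyr-Tyr-Ser gene had values in all 3 selfed embryos. The members and lists were chosen with earlier results of these data known.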

Additional observations from a re-analysis of the deposited data

Results flagged for a closer look

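Class means of single libraries were compared within a tissue, and 6 lay far from the rest by Dixon's criterion, which flags about 1 in 20 groups by chance. Dispersed tRNA windows had 15.0% CG methylation in the Col x Col endosperm, with the nearest endosperm at 2.90%, and 6.92% CHG methylation, with the nearest at 1.69%. This library had 20 dispersed windows with CG calls and 13 with CHG calls, and its window mean file gave 1.92% CG methylation over 525 dispersed windows. The dispersed windows of the Cvi x Ler embryo had 9.0% CG methylation, with the nearest embryo at 4.58%.

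In the Pro cluster, the Cvi x Ler embryo had 2.41% CHG methylation, with the nearest embryo at 0.497%, and 2.24% CHH methylation, with the nearest at 0.393%. The Ler x Ler endosperm had 1.73% CHG methylation over 27 windows, with the nearest of the 6 endosperms at 0.240%. The causes were not tested.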

How the results depend on the processing

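Under other settings, 313 recomputed values kept their direction and their side of the threshold or stayed within 1.5 times, 12 newly passed, 2 no longer passed, 28 reversed and 11 counts moved by more. The lower CG level of dispersed tRNA windows in embryos kept both under all of them. With the window mean files, tRNA minus flank in endosperm passed in CG (-7.12 points) and CHG (-0.976), as did clusters minus dispersed in CG (48.9 in endosperm, 36.5 in embryos). At a minimum of 15 calls, tRNA minus flank was -8.95 in endosperm CG and passed, and 1.96 in CHG, while clusters minus dispersed in endosperm CHG was -0.739, endosperm minus embryo in clusters was -1.93 in CG, and its difference from dispersed genes was 0.0801 in CHG. With pooled calls, tRNA minus flank in endosperm CHG was 0.0124, clusters minus dispersed were -0.341 (CHG, endosperm) and -0.142 (CHH, embryos), endosperm minus embryo in clusters was 0.0230 in CHH, and the difference of tissue differences was 0.655 (CHG) and 0.365 (CHH). At windows shared by the libraries of a tissue, tRNA minus flank in endosperm CG was -8.16 and clusters minus dispersed in embryo CG 27.5, and both passed, with -0.789 (CHG, which passed) and -0.248 (CHH) for clusters minus dispersed in embryos. With flank windows outside protein-coding genes, endosperm tRNA minus flank was -5.32 (CG) and -4.17 (CHG), and both passed. With windows holding a whole tRNA gene, clusters minus dispersed in endosperm CHH was -0.103.

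At uniquely mappable windows, clusters minus dispersed in embryo CG was 31.4 and passed, and it was -1.19 (CHG, embryos, which passed), -0.263 (CHH, embryos), -0.794 (CHG, endosperm) and -0.356 (CHH, endosperm). There tRNA minus flank was 0.0417 in endosperm CHG, and in CHH it no longer passed (-0.214 in endosperm, -0.100 in embryos). The difference of tissue differences there was 0.239 (CHG) and 0.0115 (CHH). The causes were not tested, except that no Tyr-Tyr-Ser gene remains at uniquely mappable windows.

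Leaving out 1 cross at a time gave -6.59 to -3.64 points for tRNA minus flank in endosperm CG and -0.971 to -0.0889 in CHG, and both passed only without Col x Col. It gave -0.440 to 0.794 for clusters minus dispersed in endosperm CHG and -0.210 to 0.461 in CHH, -1.02 to 6.71 for endosperm minus embryo in clusters in CG, and -0.381 to 0.203 (CHG) and -0.114 to 0.124 (CHH) for the difference of tissue differences. Clusters minus dispersed in embryo CG ranged from 31.4 to 40.7.

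With a minimum of 30 calls (100 in CHH), tRNA windows called fell to 6 between Cvi and Col in CG, against 17, to 4 between Cvi and Ler in CG, against 13, to 1 between Ler and Col in CHG, against 2, to 2 between tissues of Cvi x Cvi in CG, against 6, and in Ler x Ler to 0 in CG, 0 in CHG and 5 in CHH, against 3, 2 and 8. At 25 points (5 in CHH) the counts were 16 between Ler and Col in CHH, against 9, 2 between Cvi and Ler in CHG, against 1, and 2 between tissues of Cvi x Cvi in CHG, against 1. At uniquely mappable windows 2 were called between Cvi and Col in CHG, against 4. Fewer windows remain at the higher minimum, and the cause of the changed counts was not tested. The tests over crosses already pair the values of each cross. No paired analysis was possible beyond them because each cross gave 1 library per tissue.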
